A study of Mus musculus with 9 samples.

Results

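The 7 insulin-like growth factor binding proteins (Igfbp1 to Igfbp7), the ligand Igf1 and the receptor Igf1r were followed in mouse embryoid bodies (EBs) exposed to silver. These 9 genes were taken as a family, by name, with earlier results of these data known. Each was read from the probe set with the highest mean over the arrays among those annotated to that gene alone, and each had only 1 such probe set. They are 9 of 22180 genes that could be read in this way.

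EBs are aggregates of embryonic stem cells in which differentiation starts once the factors that hold the cells in the pluripotent state are withdrawn. Those of the AgNP group were kept for 24 h with citrate-coated silver nanoparticles of 20 nm, those of the Ag+ group with silver ions given as silver acetate, each at 5.0 µg/ml, and control EBs received no silver. Exposure started on day 3, after EBs formed in hanging drops had been transferred to Petri dishes, in a medium without the pluripotency factors. All groups derived from a single C57BL/6 mouse stem cell line, so the spread between samples is that between cultures of 1 line, and each sample pooled many EBs. RNA of 3 biological replicates per group was hybridised to Affymetrix Mouse Gene 2.0 ST arrays. Levels are RMA values on the log2 scale, where a difference of 1 is a 2-fold change, and levels of different genes cannot be set against each other because their probes differ.

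IGF1 and IGF2 are growth factors that act through the tyrosine kinase receptor encoded by Igf1r, which feeds the PI3K, AKT and mTOR pathway of growth and survival. Outside the cell the ligands are held by secreted binding proteins, which prolong their lifetime or keep them from the receptor, and which proteases cut to set the ligands free. In the early embryo the system is known above all for its control of growth.

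The medians of the 9 arrays lay between 5.03 and 5.08 over the 25341 probe sets that carry a gene name. RMA brings the arrays to 1 distribution, so this likeness follows from the processing. Pairs of arrays from the same group correlated at 0.994 to 0.996 and pairs from different groups at 0.991 to 0.996, and 0 pairs held identical values. On the second principal component AgNP replicate 1 and control replicate 3 stood at opposite ends, with scores of 19.9 and -20.6, while the other arrays lay between -3.68 and 5.75. The labels name the cell type as embryonic stem cell. Of the markers of that state, Nanog lay between 6.71 and 9.02, Sox2 between 6.99 and 8.20, Pou5f1 between 5.75 and 6.37, Tdgf1 between 9.56 and 11.0, Klf4 between 5.25 and 6.05, Dppa4 between 4.34 and 5.36, Zfp42 between 4.65 and 5.33 and Esrrb between 4.15 and 4.64 over the 9 arrays. These values carry no detection call, so presence or absence of a marker was not read from them. The same holds for the 9 genes of the family. Values are given below for replicates 1, 2 and 3 in that order, and the small number of arrays limits their precision.

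The promoters of 3 binding protein genes are shown first because these genes carry the main contrasts: Igfbp5 changed with Ag+, Igfbp2 is its neighbour on the chromosome and did not pass the test, and Igfbp4 had the lowest p among the other members in both comparisons with controls. Each sequence holds the 250 bases before the annotated start, read 5′ to 3′ on the strand of the gene, from RefSeq on GRCm38.p6, at chr1:72874866-72875115 (minus strand) for Igfbp5, chr1:72824230-72824479 (plus strand) for the lower of the 2 starts of Igfbp2, and chr11:99040994-99041243 (plus strand) for Igfbp4. Capitals mark matches to the letters searched.
Igfbp5: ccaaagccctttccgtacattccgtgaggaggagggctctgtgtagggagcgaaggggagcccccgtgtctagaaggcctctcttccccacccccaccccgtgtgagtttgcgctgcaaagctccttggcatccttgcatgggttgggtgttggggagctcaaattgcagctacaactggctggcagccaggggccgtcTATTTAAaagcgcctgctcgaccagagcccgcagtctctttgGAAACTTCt
Igfbp2: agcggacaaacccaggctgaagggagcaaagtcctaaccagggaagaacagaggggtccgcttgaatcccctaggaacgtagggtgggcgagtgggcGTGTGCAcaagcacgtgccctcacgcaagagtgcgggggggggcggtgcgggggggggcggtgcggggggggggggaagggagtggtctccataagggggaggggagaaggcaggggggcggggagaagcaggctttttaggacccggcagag
Igfbp4: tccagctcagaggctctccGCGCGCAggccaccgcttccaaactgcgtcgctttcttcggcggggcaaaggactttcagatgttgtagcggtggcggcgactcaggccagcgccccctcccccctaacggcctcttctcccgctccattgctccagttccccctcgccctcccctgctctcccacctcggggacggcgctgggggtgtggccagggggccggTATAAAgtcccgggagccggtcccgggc

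The search covered, on both strands, the TATA box (TATAAA), the variant TATTTAA, the core of the insulin response element (CAAAACA), the core of the metal response element in its forms TGCACNC and TGCGCNC, and a pair of heat shock element units (GAANNTTC). TATTTAA was added after the Igfbp5 sequence had been read. In the Igfbp5 window TATTTAA stood 51 to 45 bases before the start and GAANNTTC 9 to 2 bases before it. The Igfbp2 window held TGCACNC on the opposite strand, 153 to 147 bases before the start, and the Igfbp4 window held TATAAA 28 to 23 bases before the start and TGCGCNC on the opposite strand. CAAAACA, the element through which insulin is known to repress Igfbp1, was found 108 to 102 bases before the start of Igfbp1 and in none of the other windows of the family. Among all 32851 promoter windows of the same length, 12.4% held TATAAA, 4.18% TATTTAA, 5.56% CAAAACA, 10.4% TGCACNC, 12.5% TGCGCNC and 6.69% GAANNTTC. TGCGCNC was also present for Igfbp3, with 4 matches of which a pair overlapped, and for Igf1r, TATAAA was present on the opposite strand for Igfbp6, and the windows of Igfbp7 and Igf1 held none of the 6. A match is a string of letters, and binding of a factor was not measured.

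With Ag+, Igfbp5 rose and no other member of the family passed the test. Igfbp5 encodes a binding protein that is also held in the extracellular matrix and is known from bone and muscle development. Its level was 6.07, 6.17 and 6.00 with AgNPs, 7.05, 7.15 and 7.61 with Ag+, and 5.76, 6.03 and 5.64 in controls. Every Ag+ array was higher than every AgNP and control array, whereas the AgNP range overlapped the control range in 1 pair of arrays. All 9 arrays entered a single limma model, and a gene was called where its p, adjusted by Benjamini-Hochberg over all named probe sets, was under 0.05. Igfbp5 was 2.76-fold higher with Ag+ than in controls, a log2 difference of 1.46 (SE 0.15, 95% interval 1.13 to 1.80, adjusted p = 0.0012, n = 3 each). This was the only call among the 9 genes in this comparison, in which 2.28% of all named probe sets were called and 0.813% were called as higher. It held with any single array left out, with differences between 1.29 and 1.57, and without the AgNP and control arrays that stood apart, at 1.38 (adjusted p = 0.015).

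With AgNPs, Igfbp5 differed from controls by 0.27 (95% interval -0.06 to 0.60, adjusted p = 0.65). The difference between the treatments was tested directly and was -1.19 for AgNP minus Ag+ (95% interval -1.52 to -0.86, adjusted p = 0.011), which made Igfbp5 the only called member there, where 0.509% of all named probe sets were called and 0.146% were called as lower. All AgNP arrays of Igfbp5 lay below all Ag+ arrays, as for 5.61% of named probe sets. Without AgNP replicate 1 or without AgNP replicate 3 this call was lost, with an adjusted p of up to 0.067, and without both arrays that stood apart the difference was -1.19 with an adjusted p of 0.088. At the same nominal mass of silver the groups therefore stood in the order Ag+, AgNP, control, and the last 2 did not differ beyond their spread. The authors reported more cell death in EBs with Ag+ than with AgNPs at this dose, and its part in these differences was not tested.

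**Figure D1:**
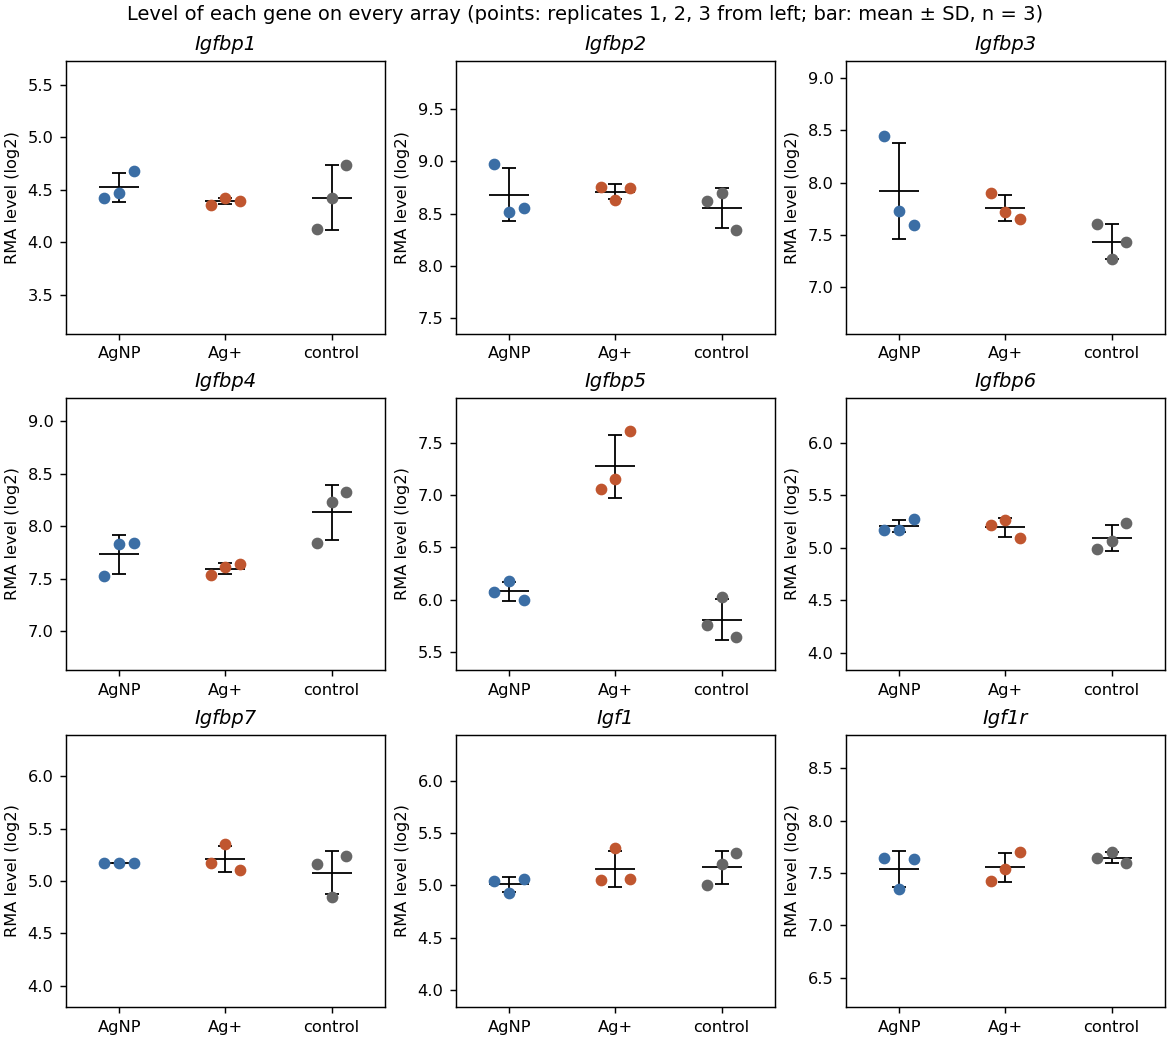
RMA level (log2, vertical axis) of each of the 9 genes on every array, with the AgNP, Ag+ and control groups along the horizontal axis. Points are replicates 1, 2 and 3 from left to right, bars are means ± SD (n = 3), and every panel spans 2.6 log2 units. The 3 Ag+ arrays of Igfbp5 (7.05 to 7.61) lie above all other arrays of that gene, and the 3 Ag+ arrays of Igfbp4 (7.53 to 7.64) lie below its controls (7.83 to 8.33).

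Igfbp4, whose product mostly restrains IGF action until it is cleaved, had lower values with silver without passing the test. It measured 7.52, 7.83 and 7.84 with AgNPs, 7.53, 7.61 and 7.64 with Ag+, and 7.83, 8.23 and 8.33 in controls. All Ag+ arrays lay below all controls, and of the AgNP arrays only replicate 3 reached above the lowest control. The difference was -0.54 for Ag+ minus control (95% interval -0.84 to -0.24, unadjusted p = 0.0025, adjusted p = 0.081) and -0.40 for AgNP minus control (95% interval -0.70 to -0.10, unadjusted p = 0.014, adjusted p = 0.46). The Ag+ difference of Igfbp4 passed the test in some other fits but stayed uncalled in 16 of 21. Without control replicate 1 it was -0.69 with an adjusted p of 0.018. Over all fits with 1 array left out it ranged from -0.69 to -0.44. In 8 of these 9 fits it was uncalled, with an adjusted p of up to 0.24. Without AgNP replicate 1 and control replicate 3 together it was -0.44 (adjusted p = 0.13).

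Igfbp3, whose product is the main carrier of the ligands in blood, was the other gene of the family whose Ag+ and control arrays did not overlap. Its levels were 8.45, 7.73 and 7.59 with AgNPs, 7.90, 7.72 and 7.65 with Ag+, and 7.60, 7.27 and 7.44 in controls. AgNP replicate 1, the array at one end of the second principal component, was the highest of the 9. The differences were 0.49 for AgNP minus control (95% interval 0.04 to 0.93, adjusted p = 0.55) and 0.32 for Ag+ minus control (95% interval -0.12 to 0.76, adjusted p = 0.51). Without AgNP replicate 1 the AgNP difference was 0.22. Over the whole family 2 genes with Ag+ had all arrays above the controls (Igfbp3 and Igfbp5) and 1 had all below (Igfbp4), where 6.99% and 9.51% of all named probe sets did so.

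Igfbp2 and Igfbp5 are neighbours on chromosome 1, with no protein-coding gene annotated between them. Igfbp2, whose product is abundant in fetal tissues, measured 8.97, 8.52 and 8.55 with AgNPs, 8.76, 8.63 and 8.75 with Ag+, and 8.62, 8.70 and 8.34 in controls. The groups overlapped, and the difference was 0.13 for AgNP minus control (95% interval -0.17 to 0.42) and 0.16 for Ag+ minus control (95% interval -0.14 to 0.45). This Ag+ interval lies wholly below that of Igfbp5. Within each array, the level of Igfbp5 minus that of Igfbp2 was -2.90, -2.34 and -2.55 with AgNPs, -1.70, -1.47 and -1.13 with Ag+, and -2.87, -2.67 and -2.70 in controls. The Ag+ arrays stood apart from all others, by 1.31 relative to controls. The two-sided exact permutation p was 0.1, the smallest that 3 arrays against 3 allow. As Igfbp2 differed little, this separation carries the change of Igfbp5 itself and adds no separate evidence.

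Igfbp1 and Igfbp3 form a second such pair of neighbours, on chromosome 11. Igfbp1, known in liver for its control by insulin, measured 4.42, 4.47 and 4.68 with AgNPs, 4.36, 4.42 and 4.40 with Ag+, and 4.12, 4.42 and 4.74 in controls. Controls spanned the whole range of the other groups, and differences from them were 0.10 with AgNPs (95% interval -0.21 to 0.41) and -0.03 with Ag+ (95% interval -0.34 to 0.28). Within each array, Igfbp3 minus Igfbp1 differed from controls by 0.39 with AgNPs and 0.35 with Ag+ (exact permutation p = 0.5 and 0.3). Beyond the pairs, the nearest protein-coding genes on either side that were analysed here were Adcy1 and Tns3 for Igfbp1 and Igfbp3, Rpl37a and Tnp1 for Igfbp2 and Igfbp5, Top2a and Tns4 for Igfbp4, Spryd3 for Igfbp6, Polr2b and Adgrl3 for Igfbp7, Pmch for Igf1, and Synm and Pgpep1l for Igf1r. None of these passed the test in any of the 3 comparisons. Next to Igfbp5, Tnp1 differed by -0.03 with Ag+ (adjusted p = 0.93), and Rpl37a, beyond Igfbp2, by 0.01 (adjusted p = 0.97).

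Igfbp6, whose product prefers IGF2 over IGF1, and Igfbp7, which binds the ligands only weakly, stayed within narrow ranges. Igfbp6 measured 5.17, 5.17 and 5.27 with AgNPs, 5.22, 5.27 and 5.10 with Ag+, and 4.99, 5.06 and 5.24 in controls. Igfbp7 was 5.17 on each AgNP array, 5.17, 5.35 and 5.11 with Ag+, and 5.16, 4.85 and 5.24 in controls. The groups overlapped for both, and the 95% intervals of all their differences between groups lay between -0.28 and 0.36. Of all named probe sets, 52.0% had a lower mean than Igfbp6 and 51.8% than Igfbp7, beside 51.0% for Igf1 and 38.8% for Igfbp1. Without a detection call, a narrow range at such levels need not mean steady expression.

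The ligand Igf1 measured 5.04, 4.93 and 5.07 with AgNPs, 5.06, 5.36 and 5.07 with Ag+, and 5.01, 5.20 and 5.31 in controls. Its difference from controls was -0.16 with AgNPs (95% interval -0.40 to 0.07) and -0.01 with Ag+ (95% interval -0.25 to 0.22). The receptor Igf1r measured 7.64, 7.34 and 7.64 with AgNPs, 7.42, 7.54 and 7.70 with Ag+, and 7.64, 7.70 and 7.60 in controls. It differed from controls by -0.11 with AgNPs (95% interval -0.33 to 0.11) and -0.09 with Ag+ (95% interval -0.31 to 0.13). Neither gene separated any groups, and the intervals leave room for changes of about 0.4 after AgNP and 0.3 after Ag+ exposure (log2).

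**Figure D2:**
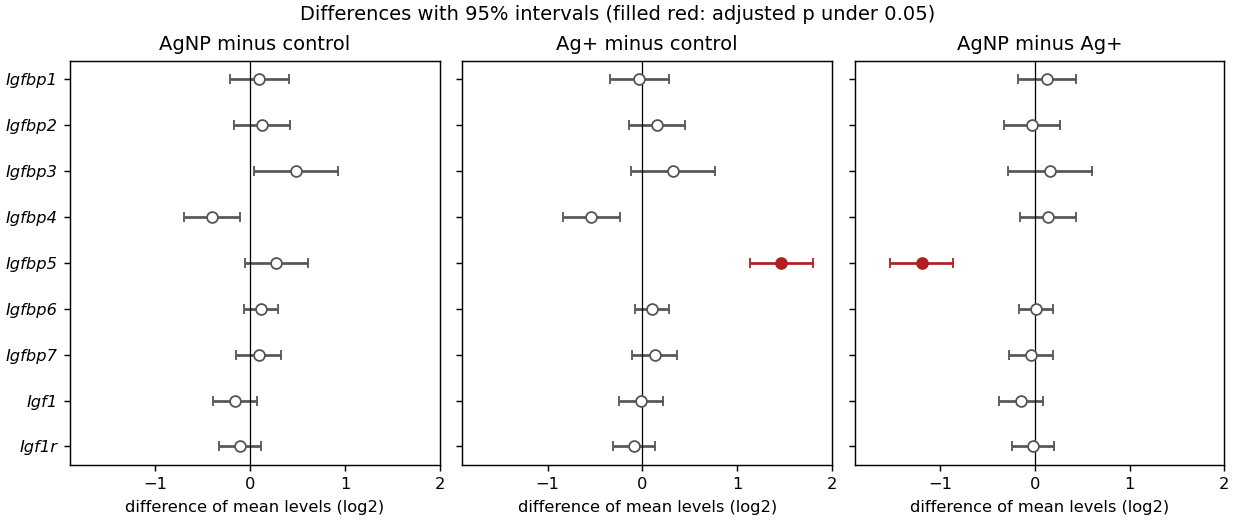
Difference of mean RMA levels (log2, horizontal axis) of the 9 genes in the 3 comparisons (AgNPs over control, Ag+ over control, AgNPs over Ag+), with 95% intervals from limma. Filled red points had an adjusted p under 0.05: Igfbp5 at 1.46 for Ag+ minus control and at -1.19 for AgNP minus Ag+.

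For AgNPs against controls, 0 of the 9 genes were called by limma, where 0.0868% of all named probe sets were. At an unadjusted p under 0.05 there were 2, Igfbp3 and Igfbp4, against 8.44% of all named probe sets. The methods' t-test gave 0 of the 9 genes at the thresholds of the methods, beside 0.288% of all named probe sets, and 0 of the 9 after adjustment, beside 0%. No member had AgNP and control arrays that did not overlap, as 10.9% of named probe sets had. The median difference of the 9 genes was 0.10 with AgNPs and 0.10 with Ag+, beside -0.0082 and -0.0036 over all named probe sets, and both comparisons use the same control arrays.

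The genes whose pattern over the 9 arrays lay nearest to that of Igfbp5 were Smoc2, Smoc1 and Vtn. Profiles were centred on their own mean, and the root mean square difference from Igfbp5 was 0.16 for Smoc2, 0.19 for Smoc1 and 0.19 for Vtn on the log2 scale, over 11541 genes with a mean of at least 5. Smoc1 and Smoc2 encode related calcium-binding proteins of the matrix, and Vtn encodes vitronectin, an adhesive glycoprotein of plasma and matrix. Since they were picked for this pattern, their values are a description. Smoc2 measured 6.03, 6.35 and 6.08 with AgNPs, 6.85, 7.05 and 7.19 with Ag+, and 5.67, 5.89 and 5.57 in controls. Smoc1 measured 6.95, 7.15 and 7.36 with AgNPs, 7.81, 8.04 and 8.48 with Ag+, and 6.74, 6.66 and 6.70 in controls. Vtn measured 4.74, 5.12 and 5.10 with AgNPs, 5.95, 6.01 and 6.79 with Ag+, and 4.68, 4.61 and 4.79 in controls. As for Igfbp5, the Ag+ arrays lay above all others, and for Smoc1 and Smoc2 all AgNP arrays also lay above all controls.

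**Figure D3:**
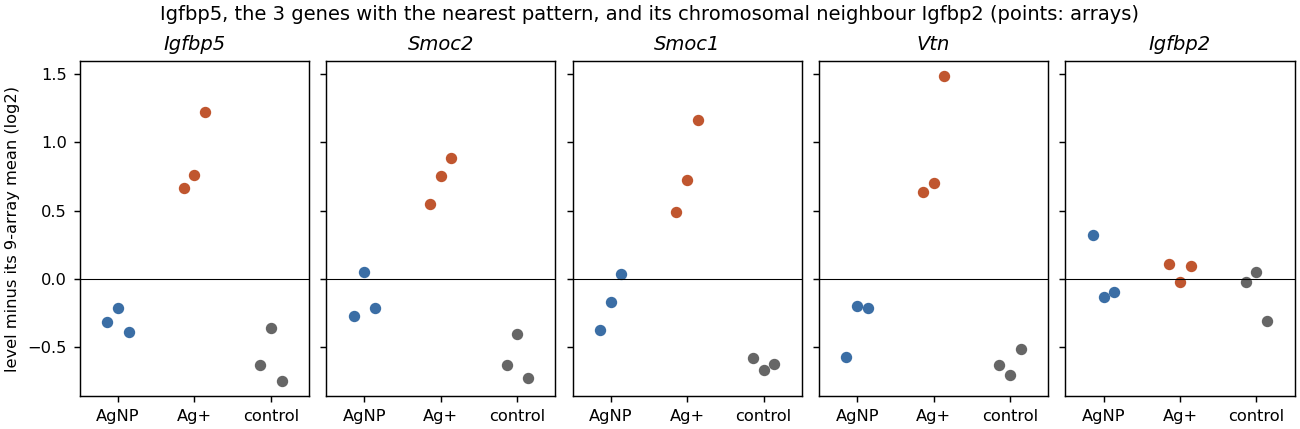
Level minus its mean over the 9 arrays (log2, vertical axis) for Igfbp5, for the 3 genes with the nearest pattern and for Igfbp2, with 1 point per array and the AgNP, Ag+ and control groups along the horizontal axis. The Ag+ arrays lie above all others for Igfbp5, Smoc2, Smoc1 and Vtn, and among the others for Igfbp2, where the AgNP arrays span 8.52 to 8.97 before centring.

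The other genes of the pathway were taken from lists of 62 genes, of which 56 could be read. The lists were chosen with earlier results of these data known, so their counts are a description. With Ag+, 8 of the 56 were called (1 higher, 7 lower), where 0.813% of all named probe sets were called as higher and 1.47% as lower. The median difference over the 56 genes was -0.05, beside -0.0036 over all named probe sets. With AgNPs 0 of the 56 were called by limma, beside 0.0868% of all named probe sets, and 9 had an unadjusted p under 0.05, beside 8.44%. The methods' t-test gave 1 gene, Irs4, at the thresholds of the methods (again beside 0.288%) and 0 after adjustment.

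Among the 10 proteases of the binding proteins, their inhibitors and the partner of the circulating complex, Pappa rose with Ag+. Pappa encodes a protease that cuts IGFBP4 and IGFBP5. It measured 6.11, 6.29 and 6.36 with AgNPs, 6.75, 6.67 and 6.89 with Ag+, and 5.92, 5.49 and 5.75 in controls. The groups did not overlap, and the AgNP arrays lay between the others. The difference was 1.05 for Ag+ minus control (95% interval 0.79 to 1.31, 2.07-fold, adjusted p = 0.0018) and held with any single array left out, from 0.93 to 1.15. For AgNP minus control it was 0.53 (95% interval 0.27 to 0.79, adjusted p = 0.23), and for AgNP minus Ag+ it was -0.52 (adjusted p = 0.14). Stc1 and Stc2, chosen here after their values were seen because they encode the stanniocalcins that inhibit the Pappa product, differed by -0.73 and -0.30 with Ag+ (adjusted p = 0.30 and 0.29).

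Of the 2 other ligands that could be read, Igf2, which encodes the main ligand of the embryo, measured 7.50, 7.81 and 8.02 with AgNPs, 7.58, 7.74 and 7.91 with Ag+, and 7.91, 8.40 and 8.74 in controls. All Ag+ arrays and AgNP replicates 1 and 2 lay below the lowest control, and AgNP replicate 3 lay above it. Ag+ replicate 3 was only just below, at 7.905 against 7.906. The differences were -0.57 with AgNPs (95% interval -1.03 to -0.11, adjusted p = 0.50) and -0.61 with Ag+ (95% interval -1.06 to -0.15, adjusted p = 0.22). Ins2, which encodes insulin, differed by 0.05 with AgNPs and 0.13 with Ag+ (adjusted p = 0.91 and 0.60). Its mean over the 9 arrays was only 2.52, where the lower quartile of the means of all named probe sets was 3.72. Small differences at such a level say little about the gene. Of 3 other receptors, Igf2r, which clears IGF2 from the cell surface, was lower by a small amount, with 8.39, 8.41 and 8.40 with AgNPs, 8.24, 8.25 and 8.33 with Ag+, and 8.54, 8.53 and 8.51 in controls. The groups did not overlap, but the call with Ag+ (-0.26, adjusted p = 0.039) was lost when any 1 of the 9 arrays was left out.

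Among 10 receptor substrates and adaptors, Irs4, a docking protein of the receptors, was lower with Ag+. It measured 4.83, 4.98 and 4.44 with AgNPs, 4.51, 4.62 and 4.65 with Ag+, and 5.77, 5.40 and 5.21 in controls. All arrays with silver lay below all controls, and the difference was -0.87 with Ag+ (95% interval -1.23 to -0.50, adjusted p = 0.027) and -0.71 with AgNPs (95% interval -1.08 to -0.35, adjusted p = 0.26). The Ag+ call of Irs4 was lost without any 1 of Ag+ replicates 1, 2 and 3 or control replicates 1 and 2, with an adjusted p of up to 0.092, and as the mean of its probe sets Irs4 differed by -0.46 (adjusted p = 0.037).

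In the list of PI3K, AKT, FOXO and mTOR, 4 of 17 genes fell with Ag+ and 0 rose, beside 1.47% and 0.813% of all named probe sets. Pik3r1, which encodes a regulatory subunit of PI3K, measured 7.31, 7.39 and 7.23 with AgNPs, 7.14, 7.04 and 7.07 with Ag+, and 7.60, 7.45 and 7.68 in controls. Foxo4, a transcription factor that AKT holds out of the nucleus, measured 6.83, 6.61 and 6.74 with AgNPs, 6.53, 6.53 and 6.38 with Ag+, and 6.95, 7.31 and 7.13 in controls. For both genes the groups did not overlap, with the AgNP arrays between the others. The Ag+ difference was -0.50 for Pik3r1 (adjusted p = 0.0091) and -0.65 for Foxo4 (adjusted p = 0.0098), and both held with any single array left out. Without both arrays that stood apart the adjusted p was 0.0499 for Pik3r1 and 0.0503 for Foxo4. The remaining calls were Tsc1, which encodes an inhibitor of mTOR (-0.39, adjusted p = 0.015), and Pik3cb, which encodes a catalytic subunit of PI3K (-0.54, adjusted p = 0.028). The first was lost without Ag+ replicate 1 or 2 or control replicate 1 or 2 (adjusted p up to 0.072), and the second without any 1 of the arrays apart from AgNP replicate 1 and Ag+ replicate 1 (up to 0.091). With AgNPs the 4 differences were -0.27 for Pik3r1, -0.40 for Foxo4, -0.12 for Tsc1 and -0.24 for Pik3cb, with adjusted p of 0.37, 0.30, 0.64 and 0.58.

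Ccn2, 1 of 9 genes whose products share an IGFBP-like domain, was lower with Ag+. It encodes a secreted matrix protein and measured 6.39, 6.30 and 6.25 with AgNPs, 5.87, 5.85 and 5.76 with Ag+, and 6.09, 6.34 and 6.26 in controls. The Ag+ arrays lay below all others, at -0.40 relative to controls (adjusted p = 0.029), and AgNP minus Ag+ was 0.49 (adjusted p = 0.037), the only call of the 56 genes in that comparison. With the replicate number as a block, the adjusted p of AgNP minus Ag+ was 0.059. The call against controls was lost without any 1 of 6 arrays and that between treatments without any 1 of 8, and the mean of the probe sets of Ccn2 differed by -0.23 from controls with Ag+ (adjusted p = 0.065) and by 0.15 between the treatments (adjusted p = 0.43). In the lists with no call, Stat5b and Socs2 had the smallest p of the growth hormone axis. Of the 3 IGF2 mRNA-binding proteins only Igf2bp3 could be read. The Ag+ differences of Igf2bp3, Stat5b and Socs2 from controls were -0.06, -0.14 and 0.46 (adjusted p = 0.79, 0.57 and 0.43).

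**Figure D4:**
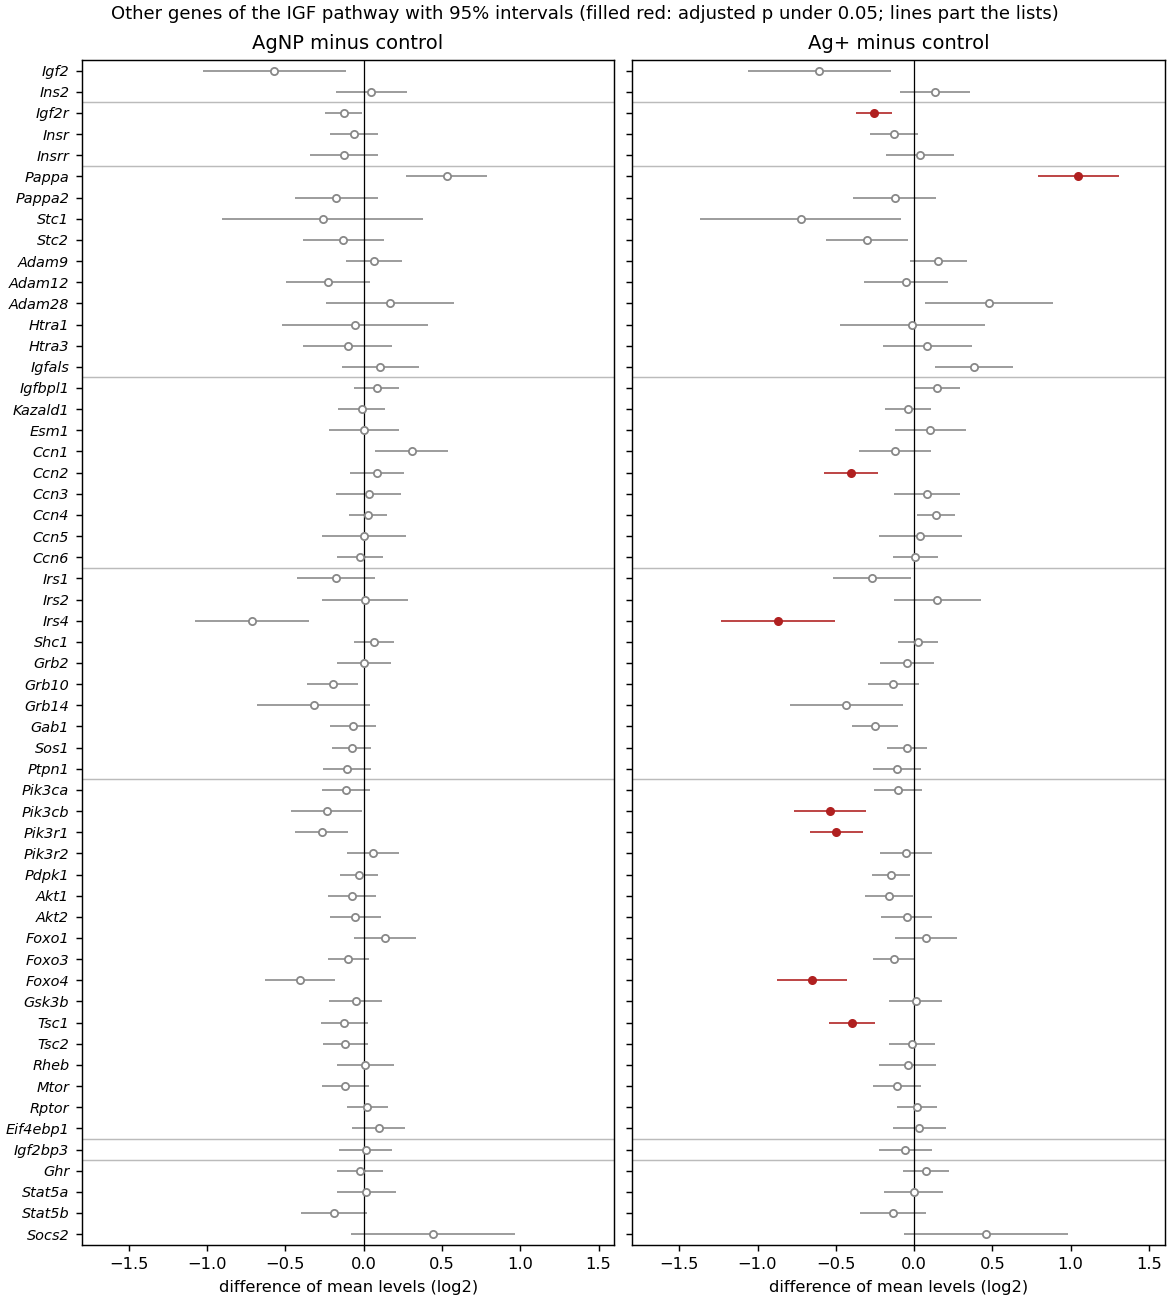
Difference of mean RMA levels (log2, horizontal axes) of the 56 other pathway genes for AgNPs and for Ag+ relative to controls, with 95% intervals from limma, 1 row per gene and lines between the lists. Filled red points had an adjusted p under 0.05: 0 with AgNPs and 8 with Ag+, where Pappa stands at 1.05 and the other 7 lie between -0.87 and -0.26.

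Markers of some of the cell types that EBs can hold changed along with the called genes, and their part in the differences was not tested. The marker lists too were chosen with earlier results of these data known, so counts from them are a description. In whole EBs, fewer cells of a type and less RNA per cell cannot be told apart. The mean level of 10 paraxial mesoderm markers was 6.23 to 6.71 with AgNPs, 7.01 to 7.36 with Ag+ and 5.84 to 5.99 in controls, the same order of groups as for Igfbp5 and Pappa. With Ag+ 8 of these 10 were higher than in controls, among them Tbx6 by 0.99, Foxc2 by 2.04 and Aldh1a2 by 2.23, and 0 were lower, and with any single array left out 6 or 7 were called. Over all named probe sets 0.813% were called as higher and 1.47% as lower in this comparison. In the other direction, 5 of 10 visceral endoderm markers were lower with Ag+, led by Cubn at -3.35. In the same list all Ag+ arrays of Sox17 and Foxa2 lay above all controls, with uncalled differences of 0.30 and 0.38 (adjusted p = 0.072 and 0.19). For the 10 markers together the mean level was 6.56 to 6.71 with AgNPs, 5.75 to 5.86 with Ag+ and 6.65 to 6.74 in controls.

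Of 9 lateral and cardiac mesoderm markers 6 were lower with Ag+, beside 1.47% of all named probe sets. The 9 averaged 6.53 to 7.01 with AgNPs, 6.09 to 6.19 with Ag+ and 7.14 to 7.57 in controls. Of the uncalled ones, Nkx2-5 and Tbx5 had higher means with Ag+, and all Ag+ arrays of Tbx5 lay above all controls. With AgNPs 1 paraxial mesoderm marker was called as higher and 1 lateral and cardiac marker as lower, beside 0.0355% and 0.0513% of all named probe sets. Without both arrays that stood apart, 0 of either list were called with AgNPs. Parietal endoderm markers averaged 7.38 to 7.54 with AgNPs, 6.85 to 7.03 with Ag+ and 7.42 to 7.57 in controls, with 5 of 8 lower and 1 higher with Ag+. Endothelium and blood markers averaged 5.42 to 5.49 with AgNPs, 5.24 to 5.40 with Ag+ and 5.61 to 5.73 in controls, with 3 of 10 lower. The group ranges overlapped for pluripotent cell markers, of which 1 of 8 was lower with Ag+, and for neural ectoderm markers, of which 0 of 8 were called by limma and 1 had an unadjusted p under 0.05, beside 13.8% of all named probe sets.

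**Figure D5:**
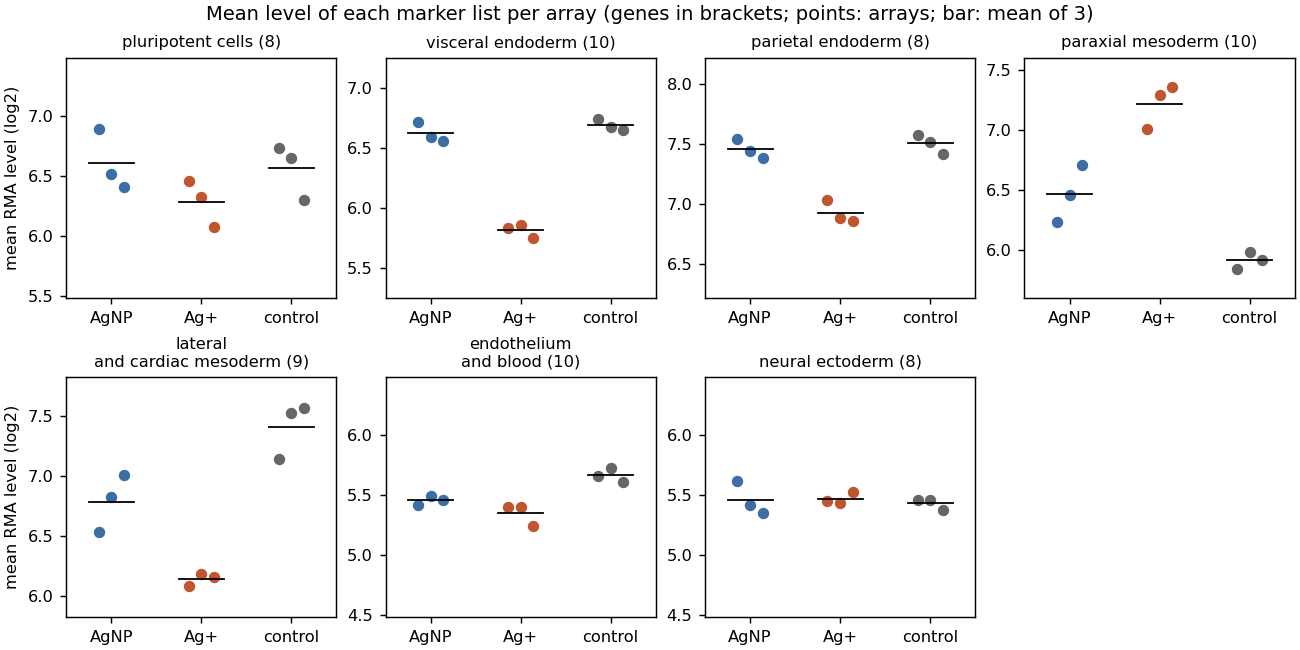
Mean RMA level (log2, vertical axis) of the markers of 7 cell types on every array, with the AgNP, Ag+ and control groups along the horizontal axis, bars at group means and the number of markers in brackets. The Ag+ arrays are highest for paraxial mesoderm (7.01 to 7.36) and lowest for visceral endoderm (5.75 to 5.86).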

How the data were processed

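RNA of 9 EB samples (3 each for AgNP, Ag+ and control, grouped by the sample labels) was measured on Mouse Gene 2.0 ST arrays. The authors summarised 41345 probe sets by RMA in Expression Console 1.3, which subtracts background, brings the arrays to 1 distribution by quantiles and combines the probes of a set by median polish. The deposited log2 values were taken without further normalization or filter. Genes were named from the platform annotation, which gives 1 gene for 23521 probe sets, several for 1820 and none here for 16004. The build and annotation behind the probe sets are not given in the sources used here.

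limma 3.58.1 was run in R 4.3.3, with tables read by the package data.table (version 1.17.8). A model of 3 group means (lmFit, eBayes) was fitted to the 25341 named probe sets, with 3 two-sided contrasts, Benjamini-Hochberg adjustment within each, a threshold of 0.05 and 95% intervals. The procedure was tested on simulated data. P-values measure the spread between cultures of 1 line.

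The members, the gene lists and the rule for naming genes were chosen with earlier results of these data known. The rule takes all 9 members, every called gene of the other pathway lists or otherwise the 2 with the smallest p, the 3 genes nearest to a called member in pattern, protein-coding neighbours, and markers. Neighbours and promoters came from RefSeq tables (GRCm38.p6), which held promoters for 9 of 9 members.

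Replicate numbers were checked for pairing. Deviations from group means of AgNP and Ag+ arrays with the same number correlated at 0.29, 0.13 and 0.20 for replicates 1, 2 and 3, so these were treated as paired in the blocked fit, on the evidence of the data and not of the labels. For comparisons with controls the correlations ranged from -0.09 to 0.41, and pairing was not taken as shown there. The blocked fit still grouped all 9 arrays by number, controls included, so its values against controls rest on that numbering.

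Alternatives were fits of only the groups compared, a replicate block, array weights, the trend and robust options of eBayes, the methods' t-test (for unequal variances, at a fold change of at least 1.5 with an unadjusted p under 0.05, or adjusted), those thresholds on the limma fit, only probe sets averaging at least 5, every probe set whether named or not, arrays centred on their median, an average over the probe sets of each gene, and each array left out. The t-test was run here on all named probe sets, without the filter for unexpressed probe sets that the authors applied, so its calls need not match theirs. The removal of both AgNP replicate 1 and control replicate 3 was chosen after seeing the data.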

Additional observations from a re-analysis of the deposited data

How the results depend on the processing

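The Igfbp5 difference between Ag+ and control kept its direction throughout and lost its call only in the adjusted t-test of the methods (adjusted p = 0.44). There 0 members were called, but that test called 0% of the named probe sets in each of the 3 comparisons. Igfbp4 joined Igfbp5, giving 2 members, with the replicate block (adjusted p = 0.019), trend and robust options (0.045), array weights (0.030) and a mean of at least 5 (0.038). For AgNP minus Ag+, 0 members were called with only the compared groups (Igfbp5 adjusted p = 0.059), in the adjusted t-test of the methods (0.84) and without AgNP replicate 1 and control replicate 3 together (0.088), and Igfbp5 stayed called with the replicate block. With 1 array left out, members called ranged from 1 to 2 for Ag+ and from 0 to 1 between treatments, and stayed at 0 for AgNPs. For the other pathway genes with Ag+, 8 calls became 4 with only the compared groups, 4 over all probe sets and 3 to 7 with 1 array left out. They became 3 in the methods' t-test at its thresholds, beside 1.32% of all named probe sets, and 0 after its adjustment. At the methods' thresholds in limma they became 5, beside 1.67%. With the replicate block there were 7, with Igf2 gained (adjusted p = 0.020) and Igf2r and Ccn2 lost (0.075 and 0.053). The block changed no other call of these genes. Over the 3 comparisons 7 of 9 same-numbered pairs correlated above 0.1, and replicate 2 of each treatment correlated best with control replicate 3 and not with its own number. With AgNPs the 0 calls became 1 (Irs4) at the methods' thresholds, by their t-test (beside 0.288% of all named probe sets) and by limma (beside 0.454%). The single call between treatments (Ccn2) became 0 with the compared groups only, the replicate block, the methods' t-test at its thresholds or adjusted, all probe sets, centred arrays, averaged probe sets, the methods' thresholds in limma and both arrays left out, and ranged from 0 to 1 with 1 array left out.

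Differences that changed sign were small and uncalled. With arrays centred on their median, they were 0.014 for Igfbp1 and 0.033 for Igf1 (Ag+ minus control) and -0.0081 for Igfbp6 (AgNP minus Ag+). Without AgNP replicate 1 and control replicate 3, they were 0.12 for Igfbp1 and 0.054 for Igf1 (Ag+ minus control), -0.13 for Igfbp2 (AgNP minus control) and -0.098 for Igfbp3 (AgNP minus Ag+), and Igfbp1 stood at 0.30 for AgNP minus control. With 1 array left out, AgNP minus control ranged from -0.054 to 0.25 for Igfbp1, -0.020 to 0.21 for Igfbp2 and -0.029 to 0.17 for Igfbp7, and Ag+ minus control from -0.19 to 0.12 for Igfbp1 and -0.11 to 0.054 for Igf1. AgNP minus Ag+ ranged from -0.18 to 0.052 for Igfbp2, -0.098 to 0.33 for Igfbp3, -0.040 to 0.046 for Igfbp6, -0.091 to 0.031 for Igfbp7 and -0.080 to 0.084 for Igf1r. The cause of these shifts was not tested.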

Other observations

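Some values were repeated exactly between arrays. Igfbp7 was listed at 5.171 on all 3 AgNP arrays and on Ag+ replicate 1, Igfbp6 at the same 5.171 on AgNP replicates 1 and 2, and Igfbp1 at 4.42 on AgNP replicate 1, Ag+ replicate 2 and control replicate 2. Such a repeat occurred for 3 of the 9 genes and for 58.0% of all named probe sets. The SD of Igfbp7 over the AgNP arrays was therefore 0.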
